A study of Mus musculus with 5 samples.

Results

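The Ccdc genes are a set of genes named for a coiled-coil domain in the encoded protein. One member, Ccdc42os, is named as an opposite strand transcript of Ccdc42 and may encode no such domain. Members were all genes with a probe set annotated to 1 gene whose symbol is Ccdc followed by a number, apart from Ccdc39, Ccdc40, Ccdc65, Ccdc103, Ccdc114 and Ccdc151. This gave 113 genes of the 18193 genes measured, each represented by its probe set with the highest mean. The genes were chosen by symbol, and the level was used only to pick the probe set. Gene expression was measured on 5 Affymetrix mouse arrays, with 1 array for each of 5 biological replicates, as the labels call them, of a single group. The RNA came from GFP+ cells sorted by flow cytometry from E17.5 lungs of FOXJ1-GFP embryos, whose reporter mice were mated with outbred ICR mice. In this transgenic line the human FOXJ1 promoter drives GFP, so the sort marks cells in which that promoter is active. No second cell population was set against these cells, since the study's E11.5 progenitor arrays are not analysed here. The tests therefore ask only whether a gene's signal exceeded a fixed level.

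A coiled coil is formed when alpha helices with a repeating pattern of hydrophobic residues wind around each other, and it serves as a rod, a spacer or a dimerisation surface. Most Ccdc symbols were given to open reading frames of unknown function, so the set shares a predicted fold and not a descent or a pathway. Many members were later placed in the cilium, where coiled-coil proteins tie dynein arms and linkers to the doublet microtubules of the axoneme and build the centriolar satellites and appendages of the basal body. Others work in splicing, vesicle traffic or mitochondria, or are known mainly from the testis.

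Promoter windows are shown first, because the X-box, bound by RFX factors, and the forkhead motif, bound by factors such as FOXJ1, are the known control elements of motile cilium genes. A window ran 300 bases around the annotated transcript start in the RefSeq table of GRCm38.p6, and 90 of the 113 members had one. GTTGCC, a form of the core repeated in the X-box, was searched on both strands. The X-box search allowed other letters at some positions, so an X-box match need not hold GTTGCC. It was found for 4 of the 5 motile cilium members that had a window, and for 1 of the 6 axonemal Ccdc genes left out by the rule. The stretches around these 4 matches are given with the match in capitals, followed by the windows of 2 members without an assigned role, Ccdc157 and Ccdc180, and by the only full X-box among the members, in Ccdc175. Each is written 5′ to 3′ on the strand of the gene.
Ccdc96, chr5:36484577-36484606 (+): ccgcgcgccctgGTTGCCccgggaaaccta
Ccdc113, chr8:95534082-95534111 (+): ttcagttgtctaGGCAACgcgcctcagggt
Ccdc153, chr9:44240513-44240542 (+): ctgagttttccaGTTGCCtggacaacgtgc
Ccdc181, chr1:164275612-164275641 (+): cagaggcgcgctGTTGCCatggcacccggg
Ccdc157, chr11:4160266-4160295 (-): gcgcggtacgccGTTGCCaaggcagcggcc
Ccdc180, chr4:45890274-45890320 (+): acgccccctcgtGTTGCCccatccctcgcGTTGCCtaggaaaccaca
Ccdc175, chr12:72185022-72185051 (-): gcgtcgtcGTTGCCCTGGCAACagtgttcc

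The core lay 1 base after the start in Ccdc96, 6 bases before it in Ccdc113 on the opposite strand, 152 bases before it in Ccdc153 and 26 bases after it in Ccdc181. Over all 27025 genes with a window 14.1% held GTTGCC, against 26.7% of the members, or 24 of 90. Among members above background, as called later, 20 of 67 (29.9%) held it, and among those not above background 4 of 23 (17.4%) did. By role the count was 3 of 5 members of membrane traffic, 3 of 8 of the centriole and basal body, 1 of 12 of the nucleus and ribosome, 1 of 7 of signalling and junctions, 1 of 4 of the sperm flagellum and 1 of 11 of the germ line. It was 0 of 3 for both the mitochondrial and the secreted members and 10 of 32 for those without an assigned role. The full X-box was found in 1.1% of all genes and in 1 member, Ccdc175, whose level was not above background. The forkhead motif TGTTTAC, searched on both strands and not overlapping the X-box letters, was found in 4.05% of all genes and in 4 of 90 members. All 4 members were above background and all were without an assigned role. The list of axoneme genes without Ccdc symbols held GTTGCC in 20 of 46 genes (43.5%). In the same list the full X-box was found in 1 of 46 (2.17%) and the forkhead motif in 4 of 46 (8.7%). The GC content of the windows was 59.1% for members above background, 51.8% for the other members and 53.8% for all genes. For the motile cilium members it was 56.4%. The sets thus differed in base composition as well. A match is a description of letters in the window, and no test was made of these shares.

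The arrays were alike. Any pair of them correlated with an r of 0.987 to 0.994 across probe sets, which are not independent of one another, and array medians lay between 7.18 and 7.26 on the log2 scale. All 9 measured marker genes of multiciliated cells were above background, among them Foxj1 at 12.82 ± 0.08 (SD, n = 5). Markers of other lung cells were called too, against 64.7% of all genes measured. The counts were 9 of 9 genes of alveolar type 2 cells, 10 of 10 of alveolar type 1 cells and 10 of 10 of endothelium. They were 11 of 12 of mesenchyme and 8 of 8 of neuroendocrine cells. Those called included Sftpc of alveolar type 2 cells at 14.06, Ager of type 1 cells at 13.25 and Scgb1a1 of club cells at 13.99. The shares for club and goblet cells (7 of 10) and white blood cells (8 of 13) lay near that of all genes. Fewer were called for basal cells (4 of 8), mesothelium (3 of 6) and red blood cells (1 of 7). Of the white blood cell genes, the 8 called included Csf1r at 11.53 and Laptm5 at 11.24. Ptprc, the defining surface protein of these cells, was among the 5 not called. It had 6.76, 6.73, 7.40, 7.71 and 8.03 in replicates 1 to 5 (7.33 ± 0.58). The part of such cells in the levels of the Ccdc genes was not tested.

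Levels are the deposited log2 signals. A gene was called above background when its mean over the 5 arrays exceeded a level of 7.11 in limma's moderated one-sided test at a Benjamini-Hochberg adjusted p under 0.05. That level is the 95th percentile of 164 genes that lung cells should lack, 76 for olfactory, vomeronasal or taste receptors and 88 of other tissues. Of these 164 genes, 7 (4.27%) were themselves called, a share that the percentile largely fixes. All 7 were genes of other tissues (7 of 88, with means up to 11.15), and 0 of the 76 receptor genes were called. Because probes bind with different strength, a gene's level is read against the background and not against that of another single gene.

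Of the 113 members, 82 were above background (72.6%), against 64.7% of all genes measured. With the level at the 99th in place of the 95th percentile of those genes that lung cells should lack, the calls were 49 members and 39.3% of all genes. Above the lower cut-off of 5, 100 members were called, against 81.3% of all genes. The study used a cut-off of 5 on average expression, together with a fold-change against its E11.5 progenitors. That is another measure than the test here. The 6 Ccdc genes left out by the rule, known for attaching dynein arms and linkers to the axoneme, were all above background. The share of members called was uneven between roles, whose lists were chosen with earlier results of these data known. All members known from the motile cilium, membrane traffic and the nucleus or ribosome were called, and few of those known from sperm or the germ line were.

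**Figure D1:**
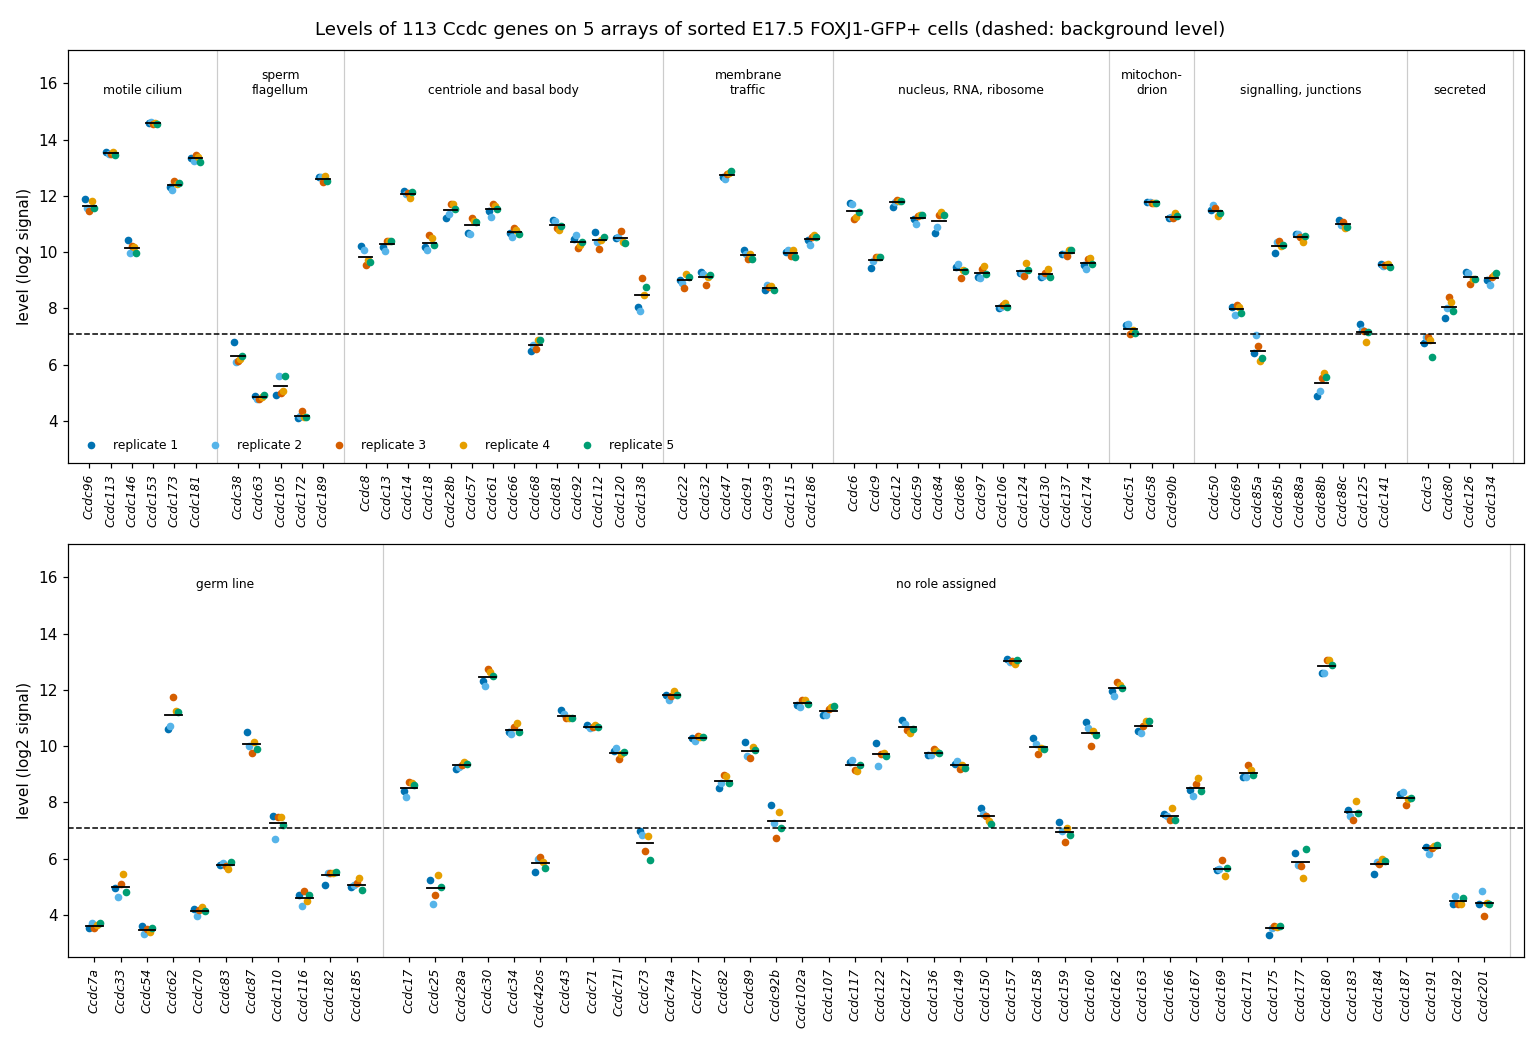
Log2 level of each of the 113 Ccdc genes on each array, grouped by role and in numeric order within a role; points are the 5 replicates, black bars their mean and the dashed line the background level of 7.11. All 6 motile cilium genes lie above the line on every array, while 9 of 11 germ line genes were not called above it.

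All 6 measured members of the motile cilium were above background on every array, as were 64.2% of all genes. Ccdc153, a subunit of the nexin-dynein regulatory complex that links neighbouring doublets, had values of 14.59, 14.61, 14.54, 14.58 and 14.56 in replicates 1 to 5 (mean 14.58 ± 0.03, SD, n = 5, limma adjusted p = 4.55e-11). Ccdc113, an axonemal protein beside that complex, had 13.56, 13.50, 13.47, 13.55 and 13.45 (13.51 ± 0.05, limma adjusted p = 4.55e-11). The 5 values spanned 0.07 for Ccdc153 and 0.11 for Ccdc113. Ccdc96, the partner of Ccdc113, was less even, with 11.90, 11.55, 11.46, 11.80 and 11.56 (11.65 ± 0.19), replicates 1 and 4 being the higher ones. Ccdc181, a microtubule-binding protein of motile cilia and flagella, had 13.35, 13.25, 13.44, 13.40 and 13.21 (13.33 ± 0.10). Ccdc173, a protein inside the doublet microtubule, had 12.30, 12.21, 12.51, 12.44 and 12.45 (12.38 ± 0.12), with replicates 1 and 2 below the others. Ccdc146, a microtubule-associated protein of the centriole and flagellum, had 10.41, 9.95, 10.23, 10.18 and 9.96 (10.15 ± 0.20). Of the other genes of the axoneme, from a list of 59 without Ccdc symbols, 49 of the 50 measured were above background. Spag6 was not, at 3.67. The study measured Spag6 by qRT-PCR in airway cultures among known ciliated-specific factors. The transcript that the probe set used here reads was not tested.

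Of the 5 members known from the sperm flagellum, 1 was above background, against 64.7% of all genes. When receptor genes alone set the level 2 were, against 77.3% of all genes. The 1 called was Ccdc189, with 12.68, 12.65, 12.48, 12.70 and 12.54 (12.61 ± 0.10, SD, n = 5, limma adjusted p = 6.18e-11), all 5 arrays being far from the background level. Ccdc63, the sperm paralogue of the docking gene Ccdc114, had a level of 4.84 ± 0.06. Ccdc38 of the manchette stood at 6.30 ± 0.29, Ccdc105, a protein of the sperm doublet, at 5.23 ± 0.34 and Ccdc172 of the midpiece at 4.19 ± 0.09. None of these 4 reached the background level on any array.

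Of 11 members known mainly from the testis and germ line, 2 were above background, against 64.7% of all genes. When receptor genes alone set the level 4 were, against 77.3% of all genes. Ccdc62, known from spermatids, had 10.60, 10.71, 11.76, 11.25 and 11.23 (11.11 ± 0.47, SD, n = 5, limma adjusted p = 6.31e-08). Ccdc87 had 10.52, 9.99, 9.76, 10.16 and 9.91 (10.07 ± 0.29, limma adjusted p = 3.4e-08). The pair ran opposite ways between replicates 1 and 3, where Ccdc62 was lowest and highest and Ccdc87 highest and lowest. Ccdc110 lay on the background level, at 7.27 ± 0.35, above it on 4 arrays and below it in replicate 2 (6.69), and was not called (limma adjusted p = 0.239). The other 8, Ccdc7a, Ccdc33, Ccdc54, Ccdc70, Ccdc83, Ccdc116, Ccdc182 and Ccdc185, had means between 3.47 and 5.77.

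Of 14 members of the centriole, centriolar satellites and basal body, 13 were above background, against 64.7% of all genes. Ccdc14, a satellite protein, had a level of 12.07 ± 0.09 (SD, n = 5), and Ccdc61, needed for basal body anchoring, 11.51 ± 0.18. Ccdc18 and Ccdc13 of the satellites had 10.32 ± 0.23 and 10.28 ± 0.17. Ccdc28b, a modifier of Bardet-Biedl syndrome, had 11.50 ± 0.22, Ccdc57 of the centrosome 10.95 ± 0.26, and Ccdc8 of the 3M complex 9.83 ± 0.28. The 2 members of the subdistal appendage were called differently. Ccdc120 was above background at 10.49 ± 0.16, whereas Ccdc68 had 6.48, 6.71, 6.56, 6.89 and 6.88, under the background level on every array.

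All 12 members that act in the nucleus, on RNA or on the ribosome were above background, against 64.7% of all genes. With the 99th percentile as the level 5 were, against 39.3% of all genes. The splicing factors Ccdc12 and Ccdc130 had levels of 11.77 ± 0.10 and 9.21 ± 0.13 (SD, n = 5), the SF3B partner Ccdc97 9.26 ± 0.19 and Ccdc84 of the minor spliceosome 11.12 ± 0.32. Ccdc9 and Ccdc174, which bind the exon junction complex, had 9.71 ± 0.17 and 9.62 ± 0.16. The nucleolar proteins Ccdc86 and Ccdc137 had 9.37 ± 0.19 and 9.97 ± 0.10, and Ccdc59, associated with rRNA, 11.21 ± 0.13. Ccdc6, which acts in the DNA damage response, had 11.47 ± 0.26, the ribosome-binding Ccdc124 9.33 ± 0.17, and Ccdc106, a regulator of p53, 8.09 ± 0.07.

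All 7 members of membrane traffic were above background, against 64.7% of all genes. With the 99th percentile as the level 3 were, against 39.3% of all genes. Ccdc22 and Ccdc93, subunits of the CCC complex that returns endosomal cargo to the surface, had levels of 8.99 ± 0.20 and 8.74 ± 0.09 (SD, n = 5). Ccdc22 was called by 1 of its 2 probe sets and Ccdc93 by 1 of its 4. The 11 measured genes of the CCC and retriever complexes listed without Ccdc symbols were all called as well. Ccdc47, which helps insert membrane proteins at the endoplasmic reticulum, had 12.75 ± 0.12, Ccdc186 of dense-core vesicles 10.48 ± 0.14 and Ccdc115, an assembly factor of the proton pump, 9.97 ± 0.12. Ccdc91 of the Golgi had 9.88 ± 0.13 and Ccdc32, which assembles the clathrin adaptor, 9.13 ± 0.17.

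Of the 3 mitochondrial members 2 were above background, against 64.7% of all genes. Ccdc58, a protein of the intermembrane space, had 11.79, 11.78, 11.76, 11.74 and 11.76 (11.77 ± 0.02, SD, n = 5), the smallest spread of the 82 members called. Ccdc90b had 11.26 ± 0.07. Ccdc51, part of a mitochondrial potassium channel, had 7.42, 7.44, 7.09, 7.22 and 7.14, on the background level, and was not called (limma adjusted p = 0.0836).

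Of 9 members of signalling, junctions and the cytoskeleton, 6 were above background, against 64.7% of all genes. The paralogues were called differently. Ccdc88a (girdin) and Ccdc88c (Daple), both linked to Wnt or G protein signalling and to actin, had levels of 10.55 ± 0.12 and 10.99 ± 0.13 (SD, n = 5). Ccdc88b, known from lymphoid and myeloid cells, had 4.90, 5.05, 5.52, 5.69 and 5.56, all under the background level. The 8 white blood cell genes above background deviated by -0.55, -0.20, 0.10, 0.28 and 0.37 from their own means in the same replicates, also lowest in replicate 1. The marker lists of alveolar type 1 and type 2 cells, endothelium and mesenchyme were lowest in replicate 1 too. The part of these cells in the values of Ccdc88b was not tested. Ccdc85b was above background at 10.23 ± 0.17 and its paralogue Ccdc85a was not at 6.50 ± 0.37. Ccdc50 of EGF receptor signalling had 11.48 ± 0.16, Ccdc141, known from neuronal migration, 9.53 ± 0.05 and Ccdc69 of the central spindle 7.97 ± 0.14. Ccdc125, known from cell motility, had 7.16 ± 0.23 and was not called (limma adjusted p = 0.577).

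Of the 4 secreted members 3 were above background, against 64.7% of all genes. By the mean over a gene's probe sets 1 was, against 57.6% of all genes. With the 99th percentile as the level 0 were, against 39.3%. Ccdc80 of the extracellular matrix had 7.67, 8.01, 8.40, 8.24 and 7.91 (8.04 ± 0.29, SD, n = 5, limma adjusted p = 6.11e-05), lowest in replicate 1 and highest in replicate 3. The 11 mesenchymal genes above background were lowest and highest in the same replicates, with deviations of -0.22 and 0.26. So were the 10 endothelial genes, with -0.56 and 0.41. In replicate 4 Ccdc80 deviated by 0.20, the mesenchymal genes by -0.10 and the endothelial genes by 0.08. The part of these cells in the level of Ccdc80 was not tested. Ccdc126 and Ccdc134 of the secretory pathway had 9.10 ± 0.17 and 9.08 ± 0.17. Ccdc3 was not called, at 6.78 ± 0.30.

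Of the 42 members without an assigned role, 30 were above background (71.4%), against 64.7% of all genes. With the 99th percentile as the level 15 were, against 39.3% of all genes. In numeric order the first were Ccdc17 at 8.53 ± 0.23 (SD, n = 5), Ccdc25 at 4.95 ± 0.42, Ccdc28a at 9.32 ± 0.09, Ccdc30 at 12.47 ± 0.25, Ccdc34 at 10.58 ± 0.16 and Ccdc42os at 5.83 ± 0.22. Ccdc25 and Ccdc42os were not called. The other 10 not called were Ccdc73, Ccdc92b, Ccdc159, Ccdc169, Ccdc175, Ccdc177, Ccdc184, Ccdc191, Ccdc192 and Ccdc201. Among paralogues, Ccdc28a and Ccdc28b were both called, as were Ccdc71 (10.70 ± 0.06) and Ccdc71l (9.76 ± 0.15). Ccdc92, a centriole protein, was called at 10.37 ± 0.18, but Ccdc92b was not, with 7.90, 7.26, 6.75, 7.65 and 7.08 on both sides of the background level (limma adjusted p = 0.212).

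Ccdc157 and Ccdc180, whose promoter windows are printed, belonged to the members called. Ccdc157 had 13.11, 12.98, 13.02, 12.90 and 13.06 (13.01 ± 0.08, SD, n = 5). Ccdc180 had 12.58, 12.62, 13.04, 13.06 and 12.88 (12.84 ± 0.23), with replicates 1 and 2 below the other 3. Ccdc175, the member with the full X-box, had 3.29, 3.54, 3.60, 3.59 and 3.59, all far under the background level. These 3 genes were chosen for display after their values were seen.

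Close to the background level, Ccdc150 at 7.50 ± 0.23 (SD, n = 5, limma adjusted p = 0.00397) and Ccdc166 at 7.53 ± 0.17 (limma adjusted p = 0.00107) were the nearest members called. Ccdc51, Ccdc92b, Ccdc110 and Ccdc125 had means over the level but were not called. Ccdc159 (6.96 ± 0.26), Ccdc3, Ccdc68, Ccdc73 (6.57 ± 0.44), Ccdc85a and Ccdc191 (6.38 ± 0.14) were the nearest under it. A value on the background side of the level is not evidence of absent transcript, since probe sets differ in how well they bind.

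**Figure D2:**
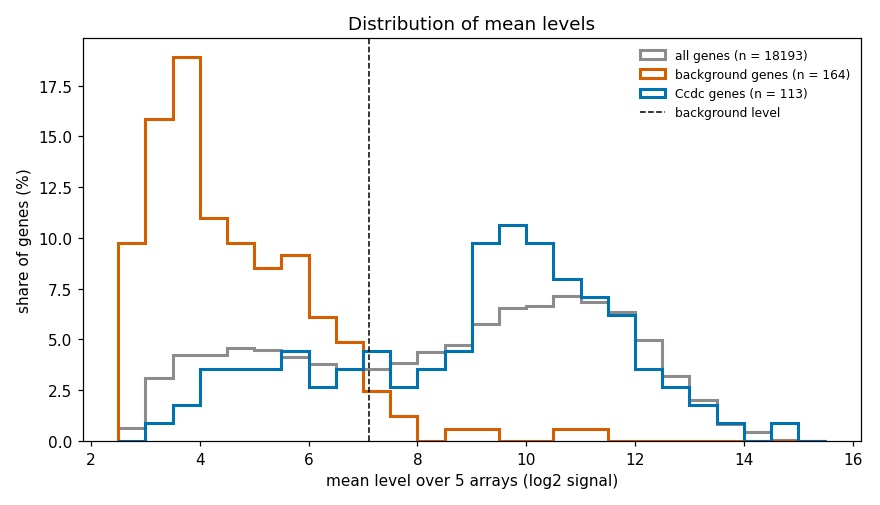
Share of genes (%) by mean log2 level over the 5 arrays for all 18193 genes, the 113 Ccdc genes and the 164 background genes, with the background level dashed. The Ccdc genes have a broad peak above 9 and a low shoulder below the dashed line, where most background genes lie.

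Members with several probe sets often gave different calls. Of the 113 members, 62 had 1 probe set and 51 had several. For 14 of these 51 all probe sets were above background, for 28 some were and some were not, and for 9 none was. Over all 207 probe sets of the members 128 were above background. The median difference between the highest and the lowest probe set of a gene was 2.63 on the log2 scale. It was largest for Ccdc34, at 10.58 and 3.65, followed by Ccdc58, at 11.77 and 5.38, and Ccdc180, at 12.84 and 6.66. All 7 probe sets of Ccdc30 were called, with means from 7.91 to 12.47. In the motile cilium, Ccdc173 was called by 3 of its 4 probe sets. Probe sets of a gene can lie in different exons or ends of its transcripts, and the transcript that each one reads was not tested.

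**Figure D3:**
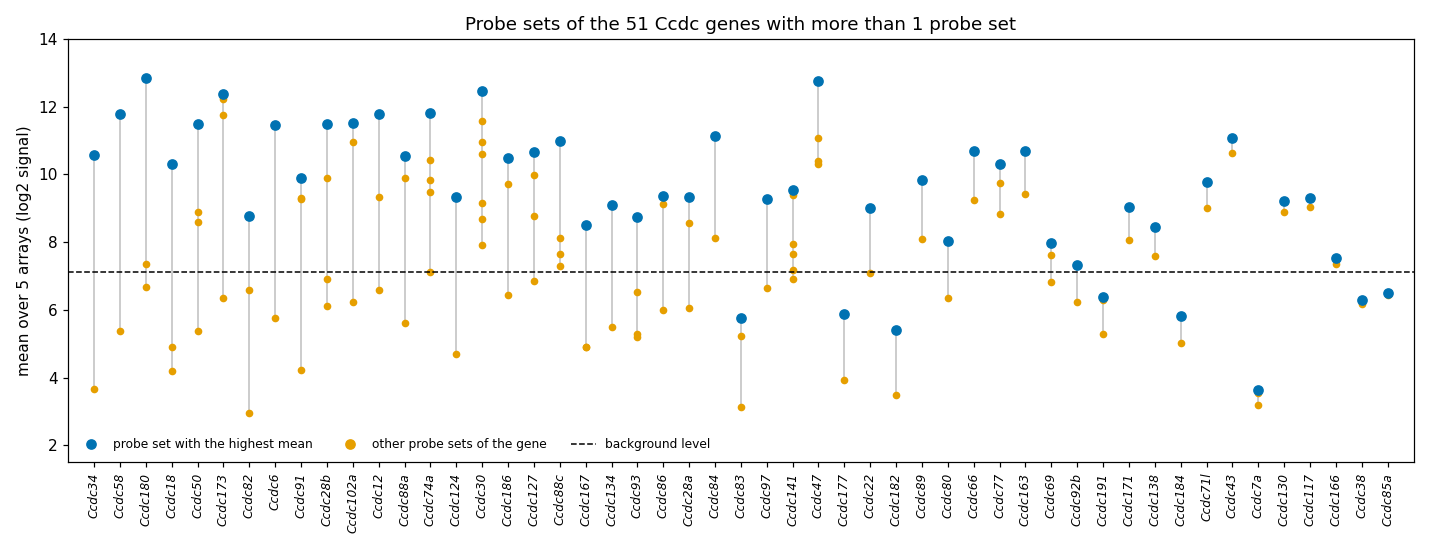
Mean log2 level over 5 arrays of every probe set of the 51 Ccdc genes with more than 1, in order of the gap between highest and lowest; blue points are the probe set used, orange points the others and the dashed line the background level. For 28 genes the points fall on both sides of the call, as for Ccdc34 at 10.58 and 3.65.

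Between arrays the members above background varied about as much as other genes did. The median SD was 0.17 over the 82 members and 0.16 over all 11764 genes above background. By level it was 0.20 against 0.22 for genes up to 9, 0.17 against 0.17 for those from 9 to 11, and 0.12 against 0.12 for those over 11. The motile cilium members had a median SD of 0.11, those of the centriole and basal body 0.18 and those without an assigned role 0.18. These are descriptions without a test.

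**Figure D4:**
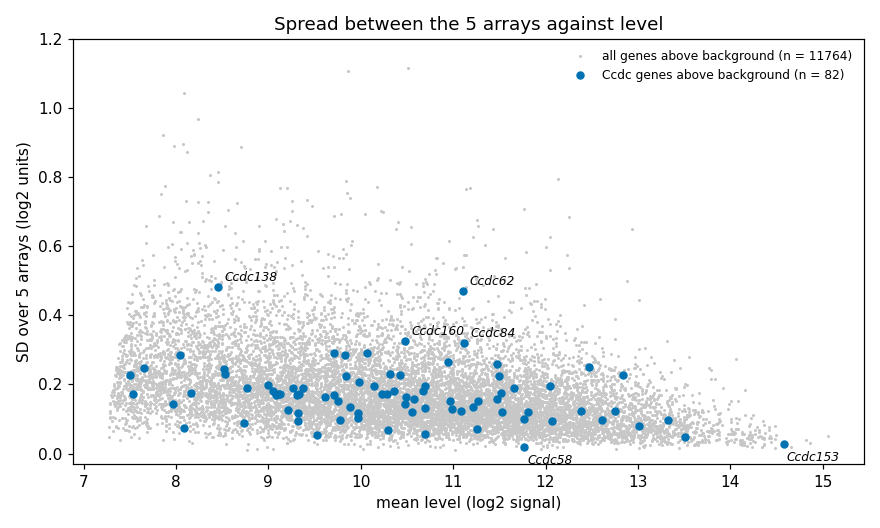
SD over the 5 arrays (log2 units) against mean log2 level for all 11764 genes above background (grey) and the 82 Ccdc genes above background (blue). The blue points lie within the grey cloud, with Ccdc138 and Ccdc62 highest and Ccdc58 and Ccdc153 lowest among the named ones.

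The 10 members above background with the largest SD differed in which arrays were high. Ccdc138, a satellite protein, had 8.06, 7.91, 9.08, 8.49 and 8.75 (SD 0.48, n = 5), Ccdc84 had 10.69, 10.88, 11.31, 11.43 and 11.30 (SD 0.32), and Ccdc57 had 10.68, 10.65, 11.23, 11.10 and 11.07 (SD 0.26). These 3, like Ccdc62, were lower in replicates 1 and 2 than in replicates 3 to 5. Ccdc8, with 10.21, 10.06, 9.56, 9.71 and 9.63, and Ccdc6, with 11.76, 11.71, 11.19, 11.26 and 11.44, were higher in replicates 1 and 2. Ccdc160 had 10.87, 10.63, 9.998, 10.54 and 10.38 (SD 0.32) and Ccdc122 10.12, 9.31, 9.72, 9.76 and 9.64 (SD 0.29). Ccdc160 was lowest in replicate 3 and Ccdc122 in replicate 2, and both were highest in replicate 1. Ccdc80 and Ccdc87, given with their roles, complete the 10.

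Averaged over the 82 members, the level deviated by 0.00, -0.07, 0.01, 0.06 and -0.01 in replicates 1 to 5, a range of 0.13. The 9 multiciliated markers had a range of 0.12 and the 49 axoneme genes 0.10, both lowest in replicate 2 and highest in replicate 4 as the members were. The 4 basal markers above background (Krt15, Pdpn, Dapl1 and Snai2) were lowest and highest in these replicates too, with a range of 0.37. The basal markers Trp63, Krt5, Krt14 and Ngfr were not called, and Pdpn is also on the alveolar type 1 list. All 11764 genes above background had a range of 0.05, lowest in replicate 3 and highest in replicate 4. Marker genes of other cells moved further, with a range of 1.24 for alveolar type 2 cells, 0.97 for endothelium, 0.92 for white blood cells, 0.64 for club and goblet cells and 0.48 for mesenchyme. In bulk RNA, fewer cells of a type and less RNA per cell cannot be told apart.

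**Figure D5:**
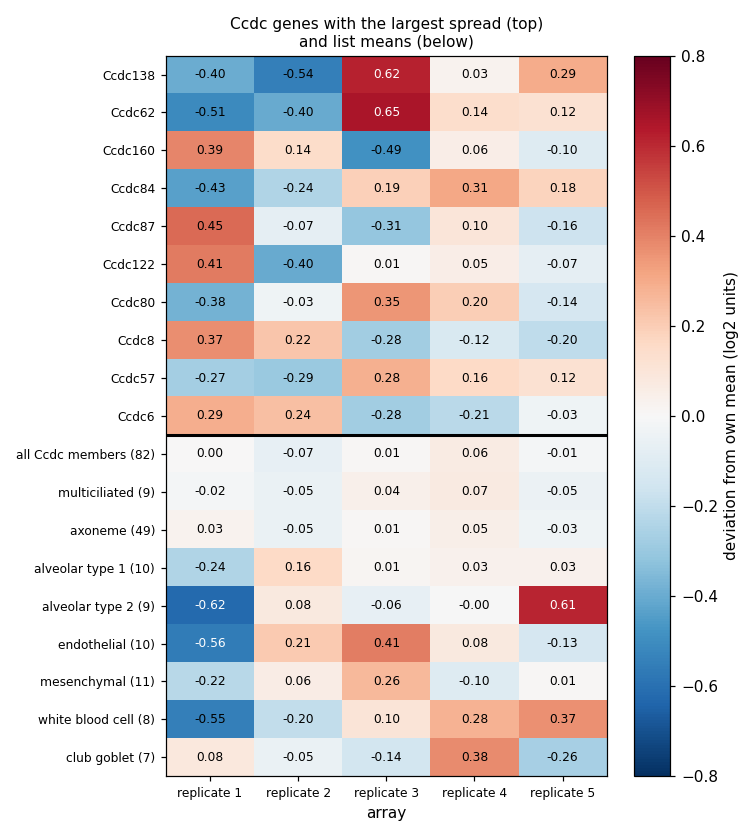
Deviation from the gene's own mean (log2 units) on each array for the 10 Ccdc genes with the largest SD (upper rows) and the mean deviation of gene lists, with the number of genes in brackets (lower rows); red is above and blue below the mean. Ccdc138 ranges from -0.54 in replicate 2 to 0.62 in replicate 3, while the mean of all 82 members stays within 0.07 of 0.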

How the data were processed

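RNA of sorted GFP+ cells was measured on 5 arrays of 1 group, with replicates numbered from the labels. The labels call them biological replicates. Whether they came from separate litters or sorts is not stated, and p-values cover only the spread between these samples. The authors released cells with trypsin and EDTA, amplified and biotin-labelled their RNA, and processed the arrays in R with Bioconductor. The deposited values run from 2.37 to 15.24, which was read as a log2 scale. The method of summarising probe sets and normalizing arrays was not given in the sources used here. No missing value was found.

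After 64 control probe sets were left out, 34945 of 45037 probe sets carried 1 gene in the platform annotation, 932 carried several and 9160 carried none here. Of the probe sets with 1 gene 99.4% matched the RefSeq gene table of GRCm38.p6, where 112 of 113 members were found (not Ccdc42os). The mean of each probe set was fitted in limma 3.58.1 (lmFit, eBayes; R 4.3.3), and one-sided p-values were adjusted over all 45037 probe sets. The test was checked on simulated data. SDs, counts and promoter motifs were computed in Python 3.11.15 with pandas 2.3.3 and numpy 2.4.6. Promoter windows came from RefSeq.

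The members, role lists, marker lists and background genes were chosen with earlier results of these data known. Named are all members of role lists of at most 12, the first 6 of longer lists, members whose call goes against most of their list, the 10 above background with the largest SD, the 6 nearest the background level on either side, and paralogues sharing a symbol stem. Other genes named were chosen after their values were seen. As alternatives, the mean over a gene's probe sets was used, probe sets ending in _s_at or _x_at were left out, arrays quantile-normalized or centred, replicates left out in turn, the test replaced by 5 of 5 arrays, the background level taken at the 99th percentile or from one kind of gene, and the cut-off raised to 6. The number of arrays limits the precision.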

Additional observations from a re-analysis of the deposited data

Results flagged for a closer look

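Among the 113 members, 2 (1.8%) had 1 array standing apart from the other 4, judged by the gap to the nearest array as a share of the whole range, and chance flags about 1 in 20 groups. Ccdc175 was lowest in replicate 1, at 3.29, with the next array at 3.54. Ccdc182 was lowest in replicate 1, at 5.06, with the next at 5.48. Neither gene was above background.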

How the results depend on the processing

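Among the alternatives run, the level taken as background moved the counts most. At the 99th percentile of the background genes, 9.69, 49 members were called in place of 82, with 39.3% of all genes called, and of those with an assigned role 34 in place of 52. At that level membrane traffic kept 3 of 7 calls, the nucleus and ribosome 5 of 12, the secreted members 0 of 3 and those without an assigned role 15 of 30. With receptor genes alone (5.44) 98 members were called, 4 of them of the germ line and 2 of the sperm flagellum, against 77.3% of all genes. With tissue genes alone (7.76) it was 79, against 59.6% of all genes, without Ccdc150, Ccdc166 and Ccdc183. With the mean of a gene's probe sets 74 were called, against 57.6% of all genes, without Ccdc18, Ccdc34, Ccdc80, Ccdc82, Ccdc93, Ccdc124, Ccdc134 and Ccdc167, so that 1 secreted member remained. Without probe sets of shared or mixed targets 77 of 110 measured members were called, against 63.7% of all genes. Ccdc28a and Ccdc28b, then read from other probe sets, were not called. Quantile normalization, centring and the rule of 5 of 5 arrays gave the same 82 members, and leaving out each replicate gave 82 to 83, with Ccdc110 gained without replicate 2. The median SD ranged from 0.146 to 0.183 over the replicates left out. No paired analysis was possible because there is 1 group. Of the 164 background genes 7, all of other tissues, were themselves called, a share that the percentile largely fixes. A probe set under the level does not show that a transcript is absent.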
